A study of Canis lupus familiaris with 15 samples.

Results

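Kinesins are motor proteins that use ATP to walk along microtubules or to take their ends apart. One set builds and drives the spindle of dividing cells, and another carries vesicles, organelles and ciliary cargo in cells that are not dividing. Polarised kidney epithelium uses transport kinesins to deliver membrane proteins to its apical and basolateral faces and to build the primary cilium. The kinesin family was examined here in MDCK (Madin Darby canine kidney) cells, an epithelial cell line, as all genes whose platform symbol is KIF followed by a digit, or KIFC1, KIFC2, KIFC3 or KIFAP3. The rule found 36 genes, covered by 78 probe sets, of 15115 genes with a probe set of 1 symbol. Each gene was read from its probe set with the highest mean log2 intensity over 15 arrays, and 25 of the 36 reached a log2 intensity of 4 on 3 or more arrays. These were 10 of 11 mitotic kinesins, 11 of 14 transport kinesins and 4 of 11 ciliary, depolymerising and other kinesins.

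The 15 Affymetrix arrays fell into 4 groups of cells held on Transwell filters for 7 days in serum-containing medium. The HGF + UO group (n = 3) had 24 h of hepatocyte growth factor (HGF, 100 ng/ml) and a compound spelled UO126 at 10 uM, and the HGF + PD group (n = 4) had the same HGF and a compound spelled PD09859 at 50 uM. The HGF group (n = 4) had HGF alone and the Control group (n = 4) had medium alone. HGF is the ligand of the receptor MET, the series title names the compounds as MAPK inhibitors, and the study asked which genes HGF regulates through that pathway. Compound and dose differ together between the inhibitor groups. No array of the 15 was labelled as cells given a compound without HGF, or a vehicle alone.

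Array medians lay between 40.4 and 42.6 intensity units. All 7 epithelium markers with a probe set were measured, with summed intensities of 85840 to 94230 in HGF + UO, 80426 to 100149 in HGF + PD, 84260 to 100965 in HGF and 112042 to 120667 in Control. Of other cell types, 3 of 7 fibroblast markers were measured, with summed intensities of 224 to 260 over all arrays, and 3 of 5 endothelium markers, with sums of 417 to 518. The markers COL1A1, COL1A2, DCN and LUM of fibroblasts, TEK and VWF of endothelium, and PTPRC, CD79A and ITGAM of leukocytes did not reach the filter level. The summed leukocyte list, of which 3 of 6 were measured, was 110.1 to 121 in HGF + UO, 106 to 112 in HGF + PD, 136 to 379 in HGF and 119 to 123 in Control, and its part in the kinesin results was not tested. Among the 3 measured leukocyte markers, HGF against Control gave 1 higher, by 3.03 on the log2 scale, 1 lower and 1 not called. Their median change was -0.07 (26.3% of all probe sets were higher and 29.2% lower). The 3' minus 5' log2 difference of beta-actin, a sign of RNA integrity, was lower in the HGF group on all 3 probe set pairs. On 1 pair it was 2.15 ± 0.04 in HGF + UO, 2.13 ± 0.07 in HGF + PD, 1.48 ± 0.08 in HGF and 2.24 ± 0.05 in Control (SD, n = 3, 4, 4 and 4), without overlap between HGF and the rest. The same difference for GAPDH did not set HGF apart, at 2.24 ± 0.03 in HGF + UO, 1.98 ± 0.07 in HGF + PD, 1.95 ± 0.03 in HGF and 2.03 ± 0.04 in Control on 1 pair. On that pair HGF + UO stood apart, at 2.20 to 2.25 against at most 2.08 elsewhere. On the other GAPDH pair HGF + UO overlapped Control. The part of either in the kinesin results was not tested. In such bulk samples a different share of cells of one kind, dividing ones for instance, and a different RNA content per cell cannot be told apart.

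The 11 genes that did not reach the filter level were KIF2B, KIF3A, KIF6, KIF7, KIF13B, KIF14, KIF19, KIF26A, KIF26B, KIF27 and KIFC2, and each had 0 arrays at a log2 intensity of 4. Their mean log2 intensities ran from 2.05 for KIF2B to 3.70 for KIF26B, which lay just outside the filter. KIF1A, with a mean of 4.07, lay just inside it. KIF4B, KIF17, KIF20A, KIF21A, KIF21B, KIF25 and KIFAP3 were not analysed here. Some genes that reached the level had many arrays at nearly 1 value. KIF18B lay within 0.02 of 7.16 on 12 of 15 arrays, KIF1A within 0.02 of 4.07 on 9 and KIF9 within 0.02 of 5.66 on 9, although the other KIF9 arrays reached down to 4.91 and up to 5.96. Whether these 3 probe sets carry signal was not tested.

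HGF against Control asked what the growth factor does to the family. Of the 25 measured kinesin genes, 14 rose and 2 fell (64.0% called, where 55.6% of all 24904 probe sets tested were called, 26.3% higher and 29.2% lower), and for 7 the log2 change was 1 or more in size (13.9% of all probe sets). The median change was 0.42 on the log2 scale, beside -0.02 over all probe sets. Here and below, kinesin shares count 1 probe set per gene, the brightest, while the shares beside them count every probe set tested. Among 10 mitotic kinesins 8 rose and 0 fell, with a median change of 0.77. Among 11 transport kinesins 5 rose and 1 fell, with a median change of 0.04, and among the 4 others 1 rose and 1 fell.

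KIF23 (MKLP1) is the motor of centralspindlin, which bundles the midzone microtubules on which the cleavage furrow is set. Its log2 intensities were 8.86, 9.03 and 8.90 in HGF + UO, 9.24, 9.34, 9.41 and 9.42 in HGF + PD, 9.82, 9.94, 9.80 and 9.89 in HGF, and 6.94, 7.27, 6.85 and 6.78 in Control. No group overlapped another, with Control lowest, HGF highest and both inhibitor groups between them but closer to HGF. The HGF rise was 7.48-fold and lay at the 99.1 percentile of changes over all probe sets tested, and a second probe set rose by 2.13 ± 0.14 on the log2 scale (SE).

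KIFC1 (HSET) walks to the minus end, the reverse of most kinesins, and focuses spindle poles. It read 8.33, 8.10 and 8.51 in HGF + UO, 8.56, 8.89, 9.14 and 8.98 in HGF + PD, 8.82, 9.09, 8.89 and 9.07 in HGF, and 5.85, 6.54, 6.27 and 6.64 in Control. The HGF + PD and HGF arrays overlapped, HGF + UO lay below both, and Control lay well below all of them. The HGF rise was 2.64 ± 0.16 (6.23-fold, adjusted p = 4.54e-09), while the other measured KIFC1 probe set rose by 0.81 ± 0.17.

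KIF22 (Kid) is a chromokinesin that binds DNA and pushes chromosome arms towards the spindle equator. It read 7.59, 7.78 and 7.90 in HGF + UO, 8.49, 8.28, 8.57 and 8.73 in HGF + PD, 8.16, 8.61, 8.22 and 8.41 in HGF, and 6.01, 6.30, 6.10 and 5.97 in Control. The order was the same as for KIFC1, with HGF + UO between Control and the other groups. The HGF rise was 2.26 ± 0.12 (4.78-fold, adjusted p = 7.73e-10).

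KIF11 (Eg5) cross-links antiparallel microtubules and slides them apart, which makes the spindle bipolar. Its arrays read 9.50, 9.88 and 9.80 in HGF + UO, 10.26, 10.09, 10.35 and 10.38 in HGF + PD, 10.66, 10.86, 10.69 and 10.66 in HGF, and 8.80, 8.72, 8.08 and 8.38 in Control. The 4 groups did not overlap and stood in the order of KIF23. The HGF rise was 2.22 ± 0.14 (4.67-fold, adjusted p = 4.01e-09).

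**Figure D1:**
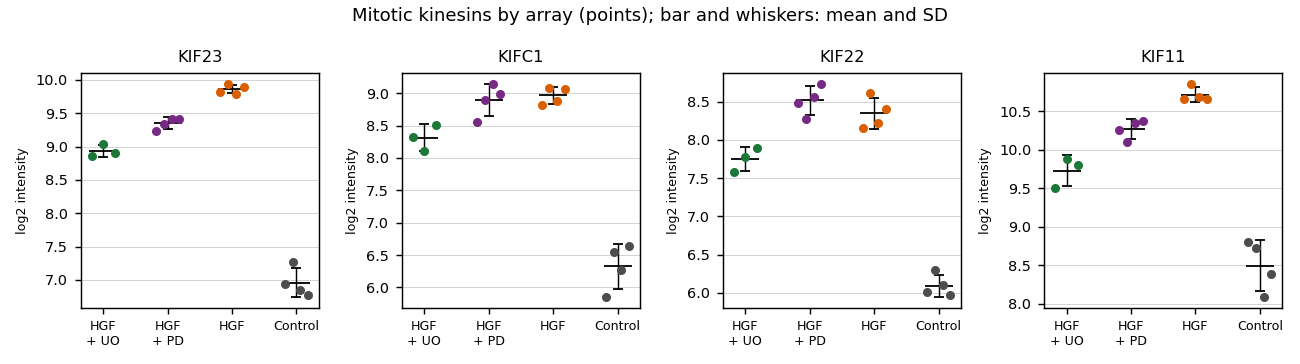
Log2 intensity (vertical axis) of KIF23, KIFC1, KIF22 and KIF11 in the HGF + UO, HGF + PD, HGF and Control arrays (1 point per array, bar and whiskers for mean and SD). All Control arrays lie below all other arrays in each panel, and the HGF + UO arrays lie below the HGF arrays in each panel, for KIF23 at 8.86 to 9.03 against 9.80 to 9.94.

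The remaining mitotic kinesins changed less on their brightest probe sets. KIF20B, a cytokinesis motor, rose by 0.55 ± 0.08 (adjusted p = 2.37e-05), and KIF2C (MCAK), which depolymerises microtubules at centromeres, rose by 0.71 ± 0.13 (adjusted p = 0.000214). KIF18A, which dampens chromosome oscillation at the metaphase plate, rose by 0.82 ± 0.28 (adjusted p = 0.0232), with HGF arrays at 5.57 to 6.56 that overlapped the Control arrays at 4.51 to 5.86. That call was lost without Control replicate 3, HGF replicate 1 or HGF replicate 2 (adjusted p up to 0.0745), while a second KIF18A probe set rose by 0.75 ± 0.11 (adjusted p = 5.90e-05). KIF4A, a chromokinesin of the midzone, differed by 0.32 ± 0.14 (adjusted p = 0.0642, and past the threshold without Control replicate 3 or HGF + PD replicate 4). KIF18B, which acts on astral microtubules, had an interval of -0.09 to 0.09 around 0 and did not pass.

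KIF15 can hold a bipolar spindle when KIF11 is inhibited, and its probe sets disagreed on size. The brightest read 8.33, 8.54 and 8.31 in HGF + UO, 8.21, 8.34, 8.29 and 8.18 in HGF + PD, 8.21, 8.44, 8.31 and 8.12 in HGF, and 8.18, 7.20, 7.37 and 7.48 in Control. Control replicate 1 thus lay within the HGF range and the other Control arrays below it, for a rise of 0.71 ± 0.16 (adjusted p = 0.00158). The next probe set read 7.79, 8.31, 8.04 and 8.43 in HGF against 4.56, 5.45, 4.59 and 4.88 in Control, without overlap, a rise of 3.27 ± 0.19 (adjusted p = 2.46e-09). Yet another rose by 2.53 ± 0.21, so all 3 probe sets called a rise of KIF15 but did not give 1 size for it.

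Transport kinesins moved both ways with HGF. KIF5C, a heavy chain of kinesin-1 best known from neurons, fell, with log2 intensities of 8.89, 8.67 and 8.69 in HGF + UO, 8.59, 9.06, 8.84 and 8.74 in HGF + PD, 5.36, 5.88, 6.71 and 6.66 in HGF, and 8.64, 8.52, 8.31 and 8.50 in Control. The HGF arrays lay far below all others and spread more than any other group. HGF changed KIF5C by -2.34 ± 0.23 (5.06-fold lower, adjusted p = 7.93e-07), at the 1.05 percentile of changes over all probe sets. Another KIF5C probe set had a mean of 3.51 with 1 array at the filter level and was not tested.

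KIF5B, the widely expressed kinesin-1 heavy chain that carries mitochondria and vesicles, rose by 0.33 ± 0.09 (adjusted p = 0.00532), with HGF arrays at 12.47 to 12.53 against Control arrays at 12.14 to 12.21. Its other 3 probe sets rose too, by 0.26 to 0.52. KIF5A, also a kinesin-1 heavy chain, differed by -0.02 ± 0.07 (95% interval -0.18 to 0.14). The measured kinesin-1 heavy chains thus gave 1 rise, 1 fall and 1 value that did not pass.

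KIF1B, which carries mitochondria and synaptic vesicle precursors in neurons, read 5.48, 4.34 and 5.29 in HGF + UO, 5.22, 4.72, 5.05 and 5.13 in HGF + PD, 6.35, 5.84, 7.04 and 6.62 in HGF, and 5.30, 5.43, 5.48 and 5.41 in Control. All HGF arrays lay above all others, and HGF + UO replicate 2 lay lowest. The HGF rise was 1.06 ± 0.25 (2.08-fold, adjusted p = 0.00219), and a second probe set rose by 0.32 ± 0.07.

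KIF1C, which moves dense-core vesicles and integrin-bearing vesicles, read 9.84, 9.57 and 9.63 in HGF + UO, 10.05, 9.76, 9.88 and 9.96 in HGF + PD, 10.48, 10.35, 10.21 and 10.25 in HGF, and 9.64, 9.65, 9.67 and 9.74 in Control. Here HGF lay above the other groups and HGF + PD between HGF and Control. The rise of 0.65 ± 0.08 (adjusted p = 4.92e-06) was seen on the brightest probe set, while the other 3 gave -0.03, 0.13 and 0.07, none past the threshold (adjusted p of 0.248 to 0.620).

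KIFC3, a minus-end motor that serves apical delivery and adherens junctions in epithelial cells, read 6.99, 7.01 and 7.07 in HGF + UO, 6.66, 6.82, 6.41 and 6.33 in HGF + PD, 7.79, 7.57, 8.37 and 8.03 in HGF, and 7.67, 7.24, 7.20 and 7.20 in Control. HGF lay highest but overlapped Control through Control replicate 1, and both inhibitor groups lay below all Control arrays. The difference of HGF + UO from Control did not pass the threshold (-0.30, adjusted p = 0.260). The HGF rise was 0.62 ± 0.16 (adjusted p = 0.00435). KIF13A, which carries recycling endosomes, rose by 0.42 ± 0.16 (adjusted p = 0.0420), a call that was lost in 9 of the 15 fits that left out an array: each Control array, HGF replicates 1, 3 and 4, and HGF + UO replicates 2 and 3. KIF16B, which moves early endosomes, and the kinesin-2 chains KIF3B and KIF3C, of which KIF3B drives transport in the cilium, differed by -0.19, 0.04 and -0.09 and did not pass (adjusted p of 0.128 to 0.778).

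KIF2A, which depolymerises microtubules at spindle poles and in neurons, read 10.13, 10.11 and 10.15 in HGF + UO, 10.13, 10.29, 10.20 and 10.33 in HGF + PD, 11.13, 11.25, 11.34 and 11.39 in HGF, and 10.07, 10.11, 10.13 and 10.08 in Control. Only the HGF arrays stood apart, by 1.18 ± 0.06 over Control (2.27-fold, adjusted p = 4.14e-10). KIF12, a kidney-expressed kinesin that modifies cystic kidney disease in mice, read 7.89, 7.61 and 7.74 in HGF + UO, 7.78, 7.66, 7.50 and 7.41 in HGF + PD, 6.93, 7.03, 7.05 and 7.02 in HGF, and 7.62, 7.90, 8.15 and 7.80 in Control. HGF was again the group apart, this time below the rest, with a change of -0.86 ± 0.11 (adjusted p = 6.42e-06). KIF9, a kinesin of motile cilia and flagella, and KIF24, which acts on centriolar microtubules and restrains cilium assembly, differed by -0.30 and -0.17 (adjusted p = 0.0579 and 0.0771). KIF9 passed without HGF replicate 2 or 3, and KIF24 without HGF replicate 2.

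**Figure D2:**
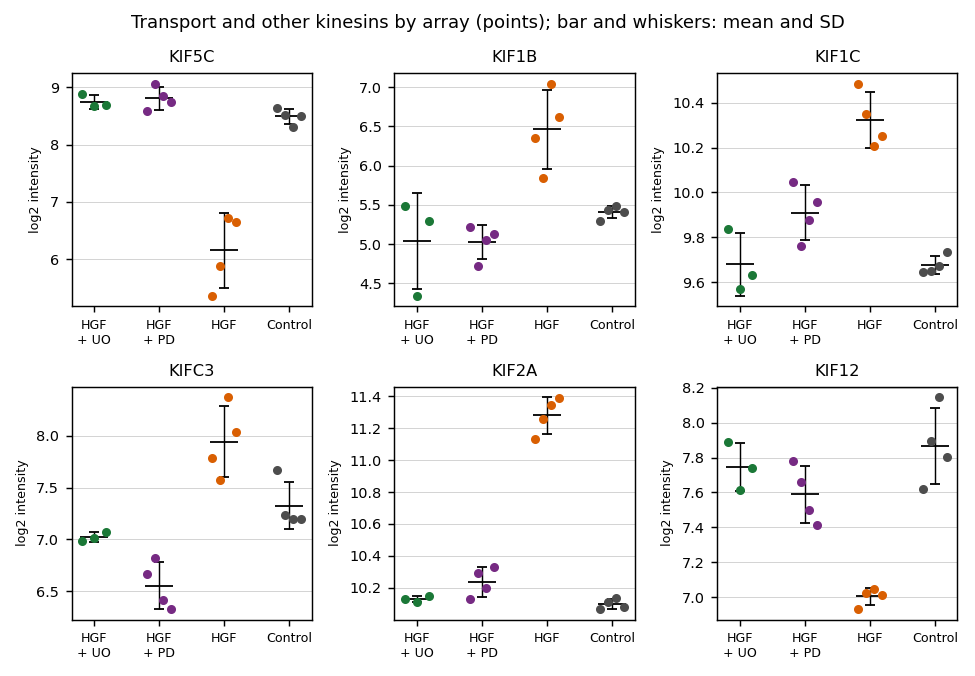
Log2 intensity (vertical axis, a separate range in each panel) of KIF5C, KIF1B, KIF1C, KIFC3, KIF2A and KIF12 in the HGF + UO, HGF + PD, HGF and Control arrays (1 point per array, bar and whiskers for mean and SD). The HGF arrays stand apart from the other 3 groups for KIF5C, KIF1B, KIF1C, KIF2A and KIF12, while for KIFC3 Control replicate 1 at 7.67 reaches the HGF range.

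HGF + PD against HGF asked which of these levels differed when PD was given with HGF. It shares the HGF arrays with the comparison above, so the values of each are given for themselves. No group had PD without HGF, so an effect of PD by itself cannot be told apart. Of 25 genes 4 were higher and 10 lower (56.0% called, where 55.4% of all probe sets were called, 30.3% higher and 25.1% lower). By at least 1 on the log2 scale, 4 changed (13.6% of all probe sets), with a median of -0.03 beside -0.01 over all probe sets. Among the mitotic kinesins 0 of 10 were higher and 3 lower, with a median of -0.02, and among the transport kinesins 1 of 11 was higher and 6 lower, with a median of -0.41.

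The 3 mitotic genes that fell with PD were KIF23 (-0.51 ± 0.09, adjusted p = 0.000221), KIF11 (-0.45 ± 0.14, adjusted p = 0.0117) and KIF2C (-0.42 ± 0.13, adjusted p = 0.0114). KIFC1 differed by -0.07 (95% interval -0.42 to 0.28) and KIF22 by 0.17 (95% interval -0.09 to 0.42), and neither passed. The 95% intervals of others that did not pass were -0.36 to 0.33 for KIF15, -0.04 to 0.55 for KIF4A and -0.50 to 0.71 for KIF18A. KIF20B (0.18 ± 0.08, adjusted p = 0.0677) passed without Control replicate 3 or HGF + PD replicate 1. No kinesin counted as mitotic changed by 1 or more. KIF2A, which fell by 1.04, was counted with the ciliary, depolymerising and other kinesins.

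Among the 6 transport kinesins that fell, KIF1B changed by -1.43 ± 0.25 (2.70-fold lower, adjusted p = 0.000182), KIFC3 by -1.39 ± 0.16 (2.61-fold lower, adjusted p = 3.47e-06) and KIF13A by -0.87 ± 0.16 (adjusted p = 0.000362). A second KIF1B probe set changed less, by -0.48 ± 0.07 (1.39-fold lower, adjusted p = 2.57e-05). KIF5B, KIF1C and KIF3C changed by -0.44, -0.41 and -0.49, and the KIF3C call was lost without HGF replicate 1 or 2 or HGF + PD replicate 1 or 3. The other KIF1C probe sets gave -0.07, -0.29 and -0.20, of which the value of -0.29 passed, and those of KIF5B gave -0.14, -0.47 and -0.34, of which -0.14 did not pass. KIF5C rose by 2.66 ± 0.23 (6.31-fold, adjusted p = 2.07e-07). KIF2A fell by 1.04 ± 0.06 (adjusted p = 1.56e-09), and KIF12, KIF9 and KIF24 rose by 0.58 ± 0.11, 0.44 ± 0.13 and 0.26 ± 0.08.

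HGF + UO against HGF asked the same of UO. Of 25 genes 2 were higher and 11 lower (52.0% called, where 52.4% of all probe sets were called, 27.2% higher and 25.2% lower). By at least 1 on the log2 scale, 3 changed (13.6% of all probe sets), with a median of -0.29 beside 0.00496 over all probe sets. Mitotic kinesins gave 0 higher and 5 lower of 10, with a median of -0.38. Transport kinesins gave 1 higher and 5 lower of 11, with a median of -0.43.

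The mitotic genes that fell with UO were KIF11 (-0.99 ± 0.15, adjusted p = 4.66e-05), KIF23 (-0.93 ± 0.10, adjusted p = 1.52e-06), KIFC1 (-0.65 ± 0.18, adjusted p = 0.00613), KIF22 (-0.59 ± 0.13, adjusted p = 0.00120) and KIF2C (-0.48 ± 0.14, adjusted p = 0.00851). KIF15 differed by 0.13 ± 0.17 on its brightest probe set and did not pass, but fell by 0.63 ± 0.21 and 0.60 ± 0.23 on the other measured ones (adjusted p = 0.0181 and 0.0386). A second KIF18A probe set also fell, by 0.50 ± 0.12, where the brightest did not pass (-0.29 ± 0.31). The other KIFC1 probe set did not pass (-0.30 ± 0.19, adjusted p = 0.205).

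Among transport kinesins KIF1B fell by 1.42 ± 0.27 (adjusted p = 0.000410), KIFC3 by 0.92 ± 0.17 (adjusted p = 0.000403) and KIF1C by 0.64 ± 0.08 (adjusted p = 1.28e-05). The second KIF1B probe set changed less, by -0.39 ± 0.07 (1.31-fold lower, adjusted p = 0.000344). The other KIF1C probe sets gave -0.17, -0.13 and -0.11, of which the value of -0.17 passed (adjusted p = 0.0214). KIF16B fell by 0.43 ± 0.11. Its second probe set, nearly flat at 6.17 to 6.30 over all 15 arrays, differed by 0.02 ± 0.04. KIF13A fell by 0.49 ± 0.18, a call lost without HGF replicate 1 or 4 or any 1 of the HGF + UO arrays. KIF5B differed by -0.03 (95% interval -0.24 to 0.18). KIF5C rose by 2.60 ± 0.25 (6.05-fold, adjusted p = 6.97e-07). KIF2A fell by 1.15 ± 0.06 (adjusted p = 1.54e-09) and KIF12 rose by 0.74 ± 0.11 (adjusted p = 6.69e-05). Values of KIF3C (-0.45, adjusted p = 0.0530) and KIF9 (0.33, adjusted p = 0.0536) lay just short of the threshold, and each passed in 3 of the 15 fits that left out an array.

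**Figure D3:**
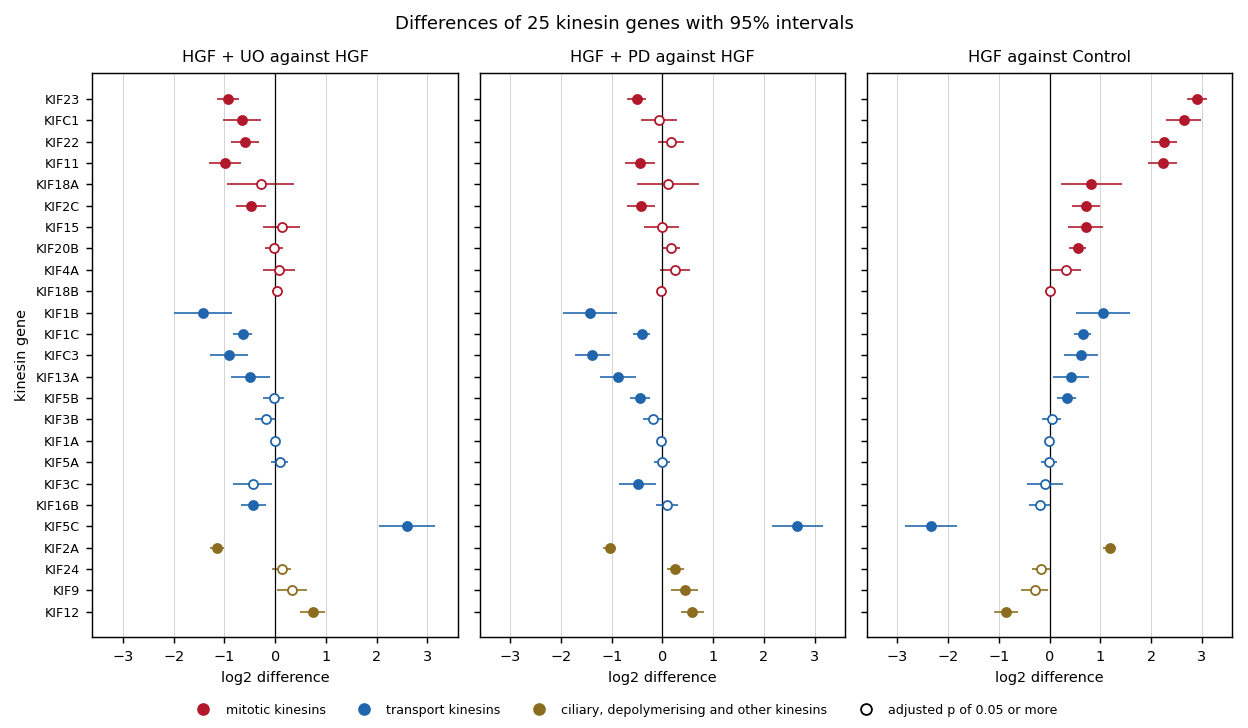
Log2 differences (horizontal axis, points with 95% intervals) of the 25 measured kinesin genes (rows, coloured by class) for HGF + UO against HGF, HGF + PD against HGF and HGF against Control, with open points where the adjusted p is 0.05 or more. KIF23, KIFC1, KIF22 and KIF11 lie at 2.22 to 2.90 for HGF against Control but between -0.99 and 0.17 in both inhibitor panels, while KIF5C lies at 2.60 and 2.66 in the inhibitor panels and at -2.34 for HGF against Control.

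The inhibitor groups were also set against Control, a comparison that does not use the HGF arrays as a group. With HGF + PD 9 of 25 genes were higher and 3 lower (48.0% called, where 34.4% of all probe sets were called, 20.2% higher and 14.3% lower), and 4 differed by at least 1 (3.29% of all probe sets). Mitotic kinesins accounted for 8 of the 9 higher genes. KIFC1 was higher than Control by 2.57 ± 0.16 (5.93-fold, adjusted p = 4.21e-08), KIF22 by 2.42 ± 0.12, KIF23 by 2.39 ± 0.09 and KIF11 by 1.78 ± 0.14. On the other measured KIFC1 probe set the gap was smaller, with means of 6.98 in HGF + PD and 6.29 in Control. KIF18A, KIF20B, KIF15 and KIF4A were higher by 0.93, 0.73, 0.70 and 0.57 on their brightest probe sets. The other measured mitotic kinesins, KIF2C (0.30, adjusted p = 0.0879) and KIF18B (-0.02, adjusted p = 0.684), did not pass. KIF2C passed in 3 of the 15 fits that left out an array. The second KIF15 probe set was higher by 3.19 ± 0.19 (adjusted p = 2.40e-08). On the third, HGF + PD arrays at 5.03 to 5.63 lay above Control arrays at 2.96 to 3.39. The KIF18A call was lost without Control replicate 3 or HGF + PD replicate 4.

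Transport kinesins stood mostly at or below Control with PD. KIFC3 was lower by 0.77 ± 0.16 (adjusted p = 0.00185), KIF3C by 0.58 ± 0.17 (adjusted p = 0.0148) and KIF13A by 0.45 ± 0.16 (adjusted p = 0.0464, lost in 10 of the 15 fits that left out an array: each Control and each HGF + UO array, HGF replicate 3 and HGF + PD replicates 3 and 4). KIF1C was higher by 0.23 ± 0.08 on its brightest probe set, a call lost without Control replicate 1, 2 or 3 or HGF + PD replicate 1 or 4, and its other 3 probe sets gave -0.10 to -0.16 without passing. KIF5C did not pass (0.32, 95% interval -0.19 to 0.82), nor did KIF1B (-0.38, 95% interval -0.91 to 0.16). KIF5B did not pass on its brightest probe set (-0.11 ± 0.09), while its second was higher than Control by 0.37 ± 0.08 (adjusted p = 0.00163). KIF2A, at 0.14 ± 0.06 (adjusted p = 0.0839), and KIF12, at -0.28 ± 0.11 (adjusted p = 0.0563), also missed the threshold, and each passed in 2 of the 15 fits that left out an array.

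With HGF + UO 7 of 25 genes were higher than Control and 2 lower (36.0% called, where 22.3% of all probe sets were called, 11.9% higher and 10.3% lower). The higher genes were mitotic in 6 of 7 cases, and 4 genes differed by at least 1 (2.3% of all probe sets). KIFC1 was higher by 1.99 ± 0.18 (3.97-fold, adjusted p = 2.04e-06), KIF23 by 1.97 ± 0.10, KIF22 by 1.66 ± 0.13, KIF11 by 1.23 ± 0.15, KIF15 by 0.84 ± 0.17 and KIF20B by 0.53 ± 0.08. The other KIFC1 probe set did not pass (0.52 ± 0.19, adjusted p = 0.0615). On their brightest probe sets KIF18A (0.54, adjusted p = 0.255) and KIF4A (0.39, adjusted p = 0.0768) did not pass. Nor did KIF2C (0.24, adjusted p = 0.265) and KIF18B (0.03, adjusted p = 0.688). KIF4A passed without Control replicate 3. The KIF15 probe sets again disagreed on size. On the second, HGF + UO read 7.46, 7.32 and 7.75 against 4.56, 5.45, 4.59 and 4.88 in Control. On the third, HGF + UO read 5.19, 4.73 and 5.24 against 3.39, 3.19, 2.96 and 2.96 in Control. KIF16B was lower by 0.62 ± 0.11 (adjusted p = 0.000953). Its second probe set, nearly flat over all arrays, did not pass (-0.00309 ± 0.04, adjusted p = 0.979). KIF3C was lower by 0.54 ± 0.18 (adjusted p = 0.0466, lost in 9 of the 15 fits that left out an array: Control replicates 1, 3 and 4, HGF replicate 1, HGF + PD replicates 2 and 3 and each HGF + UO array). KIF5B was higher by 0.31 ± 0.10, and this call was lost without any 1 of the Control or HGF + UO arrays. KIF2A differed from Control by 0.03 (95% interval -0.10 to 0.17) and KIF5C by 0.26 (95% interval -0.29 to 0.80), neither past the threshold. KIFC3 did not pass either (-0.30, adjusted p = 0.260), although its arrays did not overlap those of Control.

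Between the inhibitor groups 5 of 25 genes passed, 1 higher and 4 lower in HGF + UO than in HGF + PD (20.0% called, where 9.22% of all probe sets were called, 2.55% higher and 6.66% lower), and 0 differed by at least 1 (0.289% of all probe sets). The genes that were lower were KIF22 (-0.76 ± 0.13, adjusted p = 0.00279), KIF11 (-0.54 ± 0.15, adjusted p = 0.0352), KIF16B (-0.52 ± 0.11, adjusted p = 0.0115) and KIF23 (-0.42 ± 0.10, adjusted p = 0.0175). KIF5B was higher by 0.41 ± 0.10 (adjusted p = 0.0176), with arrays at 12.48, 12.50 and 12.45 in HGF + UO against 12.23, 12.29, 12.02 and 11.72 in HGF + PD. Those arrays did not overlap, but the other 3 KIF5B probe sets differed by 0.00418, 0.34 and 0.16, of which the value of 0.34 passed (adjusted p = 0.0437). The second probe sets of KIF16B (0.04 ± 0.04, nearly flat over all arrays) and KIF23 (-0.38 ± 0.15, adjusted p = 0.132) did not pass, and that of KIF18A did (-0.62 ± 0.12, adjusted p = 0.00791). KIFC1 did not pass (-0.58 ± 0.18, adjusted p = 0.0561) although its arrays did not overlap, and it passed without Control replicate 1 or 4 or HGF + PD replicate 1. The count became 3 without HGF + PD replicate 4 or HGF + UO replicate 2, and 2 without HGF + UO replicate 1 or 3. KIF22 kept its call in all 15 such fits. KIF11 lost it without HGF + PD replicate 1, 3 or 4 or any 1 HGF + UO array, KIF23 without HGF + PD replicate 4 or HGF + UO replicate 1 or 3, KIF5B without HGF + UO replicate 1 or 2, and KIF16B without HGF + UO replicate 3.

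**Figure D4:**
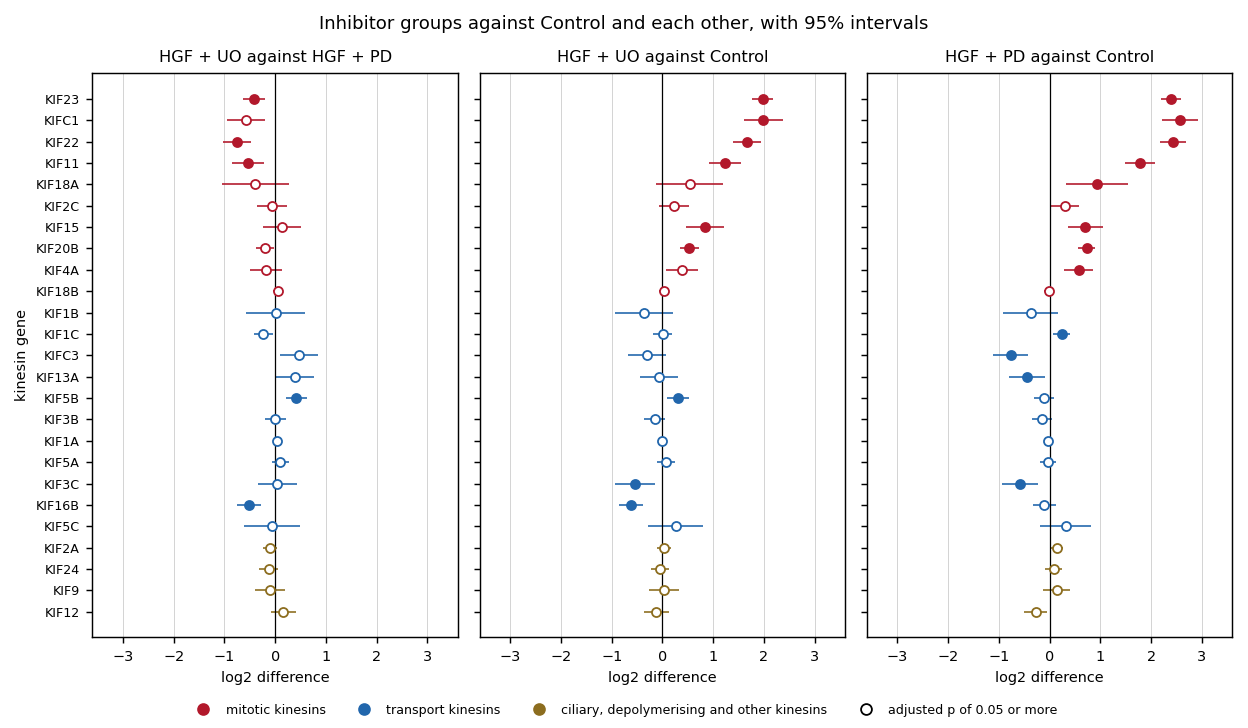
Log2 differences (horizontal axis, points with 95% intervals) of the 25 measured kinesin genes (rows, coloured by class) for HGF + UO against HGF + PD, HGF + UO against Control and HGF + PD against Control, with open points where the adjusted p is 0.05 or more. KIF23, KIFC1, KIF22 and KIF11 lie at 1.23 to 2.57 above Control in both inhibitor groups, and KIF5C, KIF2A and KIF12 are open points there, between -0.28 and 0.32.

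**Figure D5:**
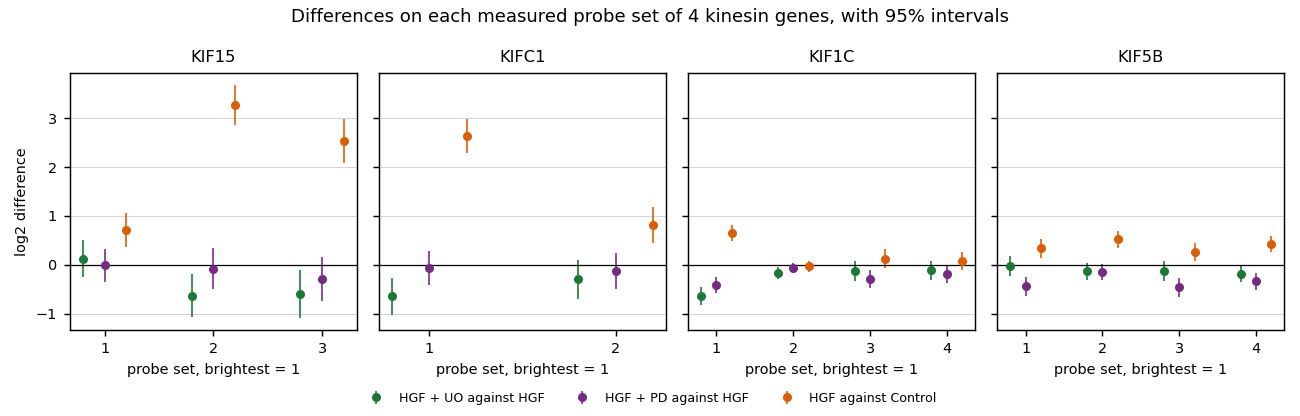
Log2 differences (vertical axis, points with 95% intervals) on each measured probe set of KIF15, KIFC1, KIF1C and KIF5B, ordered from the brightest, for HGF + UO against HGF, HGF + PD against HGF and HGF against Control. The HGF rise of KIF15 is 0.71 on the brightest probe set and 3.27 and 2.53 on the others, and that of KIF1C is 0.65 on the brightest and -0.03 to 0.13 on the others, while all 4 KIF5B probe sets lie between 0.26 and 0.52.

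Genes that work with the mitotic kinesins were counted from a list of spindle partners. With HGF 14 of 17 measured partners rose and 1 fell, with a median change of 1.75 (26.3% of all probe sets were higher and 29.2% lower). Against Control, 14 were higher and 0 lower with HGF + UO (median 1.29, where 11.9% of all probe sets were higher), and 15 were higher and 0 lower with HGF + PD (median 1.86, where 20.2% were higher). PRC1, the midzone bundler that binds KIF4A, rose by 3.02 ± 0.13 with HGF and was higher than Control by 2.15 ± 0.14 with HGF + UO and 2.57 ± 0.13 with HGF + PD. RACGAP1, the partner of KIF23 in centralspindlin, was higher than Control by 2.00 ± 0.12 with HGF, 1.22 ± 0.13 with HGF + UO and 1.76 ± 0.12 with HGF + PD. CEP55, the abscission scaffold, was higher by 4.43 ± 0.22, 2.85 ± 0.24 and 3.35 ± 0.22 in the same groups.

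All 6 measured proliferation markers were higher than Control in each of the 3 treated groups, where 11.9% of all probe sets were higher with HGF + UO, 20.2% with HGF + PD and 26.3% with HGF. TOP2A, the topoisomerase that untangles replicated chromosomes, was higher by 2.04 ± 0.10 with HGF, 1.28 ± 0.11 with HGF + UO and 1.69 ± 0.10 with HGF + PD. It differed by -0.41 ± 0.11 between HGF + UO and HGF + PD (adjusted p = 0.0321). CDK1, the mitotic kinase, was higher than Control by 1.61 ± 0.08, 1.57 ± 0.08 and 1.73 ± 0.08 in the 3 groups. Whether the share of dividing cells differed between the groups was not tested.

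Cargo adaptors and light chains of kinesin-1 gave 5 higher and 3 lower of 9 with HGF, where 26.3% of all probe sets were higher and 29.2% lower. SPAG9 (JIP4), a scaffold that binds kinesin-1 and dynein, rose by 1.72 ± 0.09 with HGF, and changed by -1.61 ± 0.09 with HGF + UO against HGF and by -1.47 ± 0.09 with HGF + PD against HGF. MAPK8IP1 (JIP1), a JNK scaffold and kinesin-1 cargo adaptor, fell by 1.60 ± 0.18 with HGF, and rose by 1.06 ± 0.19 with HGF + UO against HGF and by 1.07 ± 0.18 with HGF + PD against HGF. TRAK1, the adaptor that links kinesin-1 to mitochondria, rose by 0.63 ± 0.07 with HGF, and fell by 0.79 ± 0.08 and 0.71 ± 0.07 in the same inhibitor comparisons.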

How the data were processed

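The authors deposited linear intensities per probe set, summarised with GCRMA per the submitters' processing notes. Its version and the annotation behind the summary are not given in the sources used here. Log2 was taken with no further scaling, 111 control probe sets were left out, and probe sets with log2 of at least 4 on at least 3 of 15 arrays were kept (24904). Symbols came from the platform annotation, and probe sets with several symbols were not used. Tests used limma 3.58.1 under R 4.3.3 (lmFit with 1 mean per group over all 15 arrays, eBayes with a trend), with Benjamini-Hochberg adjustment over the 24904 probe sets in each comparison and a threshold of 0.05. Changes are log2 differences ± SE of the fit, and levels have the SD. The fit was tested on simulated data. Members and lists were chosen with earlier results of these data known.

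Per-array values are given for kinesin genes that changed by at least 1 past the threshold with HGF or with an inhibitor against HGF, and for the 4 transport kinesins with the lowest adjusted p for HGF. KIF12 and KIF15 were added after their values were seen, and up to 3 members, those with the lowest adjusted p for HGF, are named per partner list. Alternatives were another filter, scaling, offset, variance model, choice of arrays or probe set, the replicate number as a block, and each array left out. Replicates are named biological in the labels, with no word on separate cultures. The p-values therefore reflect only how these arrays vary, and their number limits the precision. Same-numbered arrays did not deviate together (21 pairs, r from -0.25 to 0.41). No sequence of a kinesin is shown, as none was used here.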

Additional observations from a re-analysis of the deposited data

Results flagged for a closer look

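Of 75 sets of 4 arrays (25 genes in 3 groups; HGF + UO with 3 arrays was not examined), 6 held an array whose gap to the nearest other exceeded Dixon's critical share of the range of the set. Chance gives about 1 in 20. KIF11 read 10.86 on HGF replicate 2 against 10.66 to 10.69 on the other HGF arrays. KIF4A read 5.38 on HGF replicate 2 against 5.26 on the others (5.255 to 5.260), and KIF20B read 9.08 on HGF replicate 1 against 9.24 on the others (9.238 to 9.243). KIF18B read 7.11 on HGF + PD replicate 2 against 7.15 to 7.16. KIF9 read 5.50 on Control replicate 1 against 5.64 to 5.66, and KIFC3 read 7.67 on Control replicate 1 against 7.20 to 7.24.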

How the results depend on the processing

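With each array left out in turn, the number of kinesin genes past the threshold ran from 14 to 17 for HGF against Control, 13 to 15 for HGF + PD against HGF, 12 to 15 for HGF + UO against HGF, 9 to 13 for HGF + PD against Control, 7 to 9 for HGF + UO against Control and 2 to 6 for HGF + UO against HGF + PD. With the replicate block these counts were 17, 14, 13, 11, 9 and 4. The replicate numbers did not pair the arrays, and the block moved no count by over 1.5 times. Counts moved by over 1.5 times only for HGF + UO against HGF + PD. There the second probe set of each gene gave 3, and so did the fits without HGF + PD replicate 4 or HGF + UO replicate 2. The fits without HGF + UO replicate 1 or 3 gave 2. Sign changes that involve a value past the threshold came only with another choice of probe set. With the second probe set they were KIF1C for HGF (-0.0341), HGF + PD (-0.10) and HGF + UO (-0.20) against Control, KIF5B for HGF + PD against Control (0.37), KIF15 for HGF + UO against HGF (-0.63), and KIF16B for HGF + UO against HGF (0.0208) and against HGF + PD (0.0363). With the mean over probe sets they were KIF15 for HGF + UO against HGF (-0.37) and KIF1C for HGF + PD against Control (-0.0391). Why probe sets of 1 gene differ was not tested. The number of arrays and GCRMA's compression of dim probe sets limit small changes.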

Other observations

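The tracks and the opposite motor were also read. All 8 measured tubulins rose with HGF, with a median change of 0.81 (26.3% of all probe sets were higher). TUBB2A, a beta-tubulin, rose by 3.28 ± 0.14, and remained higher than Control by 1.84 ± 0.15 with HGF + UO and by 1.19 ± 0.14 with HGF + PD. TUBB rose by 1.49 ± 0.08 and the alpha-tubulin TUBA4A by 1.15 ± 0.07 with HGF. TUBA4A did not pass for HGF + UO (-0.02 ± 0.08) or HGF + PD (0.08 ± 0.07) against HGF. Of the 8 tubulins, 1 was higher and 5 lower with HGF + UO against HGF (median -0.34, where 27.2% of all probe sets were higher and 25.2% lower). With HGF + PD against HGF 2 were higher and 5 lower (median -0.50, where 30.3% of all probe sets were higher and 25.1% lower).

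Of 17 measured genes of dynein and dynactin, the minus-end motor and its activator, 9 rose and 3 fell with HGF, with a median change of 0.15 and 0 changes of 1 or more (55.6% of all probe sets were called and 13.9% changed by 1 or more). Against HGF, 4 were higher and 9 lower with HGF + UO, where 52.4% of all probe sets were called, and 3 were higher and 10 lower with HGF + PD, where 55.4% were. The light intermediate chain DYNC1LI1 rose by 0.81 ± 0.06 with HGF, the light chain DYNLT3 fell by 0.62 ± 0.07, and the dynein regulator NDEL1 rose by 0.66 ± 0.07.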
